A study of Mus musculus with 8 samples.

Results

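The 10 genes followed here belong to the transforming growth factor beta (TGF-beta) family and were compared between liver tumors and the adjacent liver of the same mice: 3 TGF-beta ligands (Tgfb1, Tgfb2, Tgfb3), 2 bone morphogenetic proteins (Bmp4, Bmp2), 4 activin beta subunits (Inhba, Inhbb, Inhbc, Inhbe) and the activin-binding protein follistatin (Fst). They were chosen by name, and each was read from the array probe annotated with that single symbol, the one with the highest mean over 8 arrays where a gene had several. All 10 had such a probe, out of 19938 genes measured, and 9 of the 10 were among the 11963 genes tested. The samples were 4 hepatocellular carcinomas and 4 pieces of adjacent normal liver from 4 male C57BL/6J mice (M24, M48, M50 and M60). All 4 had been injected, when 2 to 3 months old, with a vector made from adeno-associated virus (AAV), and they were kept on a normal diet until necropsy 18 months later, so tumor and adjacent tissue share the vector, the age and the animal. What the vector carried is not given by the labels, and no liver of an uninjected mouse was analysed here. Each piece of bulk tissue was hybridised to 1 array.

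TGF-beta family ligands are made as precursors that are cut by proprotein convertases and secreted as dimers. They bind pairs of type I and type II receptor kinases, which phosphorylate Smad proteins: TGF-betas and activins signal mainly through Smad2 and Smad3, and bone morphogenetic proteins (BMPs) mainly through Smad1, Smad5 and Smad9. In liver, TGF-beta is known for driving matrix production by stellate cells and for restraining hepatocyte growth, activin A also restrains hepatocyte growth, BMPs control the iron hormone hepcidin, and the beta C and beta E activin subunits are made chiefly by hepatocytes.

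In the tumors the activin subunits parted from each other. Inhbb was 4.63-fold higher than in adjacent liver (a log2 difference of 2.21, SE 0.203, n = 4 pairs) and Inhba 1.92-fold higher, while the liver-enriched Inhbc was 3.05-fold lower (-1.61, SE 0.201) and Inhbe did not pass the test (-0.14, SE 0.169). Bmp4 was 2.27-fold higher, and Tgfb1 and Tgfb3 were 1.74-fold and 1.43-fold higher. Bmp2 and Fst did not pass. In all, 5 of the 9 tested genes rose and 1 fell, beside 16.3% of all tested genes that rose and 15.7% that fell (31.9% called in either direction). The rises include Inhbb, which was tested only because of its tumor values.

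All differences are tumor minus adjacent on the deposited log2 scale, and "rose" and "fell" are used where the adjusted p of limma's moderated test, with the mouse as a block and Benjamini-Hochberg adjustment over all tested genes, was under 0.05. The levels are log2 values of single probes, so they are compared between tissues and not between genes. Genes whose mean lay below 4.60 were left out of the test. This value sets aside the 40% of genes with the lowest mean and is not a detection limit. Inhbb passed the filter only through its tumor values, its adjacent mean being 4.53. The median difference was 0.80 over the 9 tested genes and 0.00080 over all tested genes. The 4 tumor values lay wholly apart from the 4 adjacent values for 4 of these 9 genes, against 30.5% of all tested genes. They were above in 3 genes (14.9% of all) and below in 1 (15.6% of all). The difference had 1 sign in all 4 mice for 6 of the 9, against 49.9% of all. A call of at least 2-fold was made for 2 higher genes, against 4.56% of all, and for 1 lower gene, against 2.88%. Since the genes were picked with earlier results of these data known, these counts are descriptions. In bulk tissue, fewer cells of a type and less RNA per cell cannot be told apart.

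One array stood somewhat apart. Over the tested genes, the adjacent liver of M48 correlated with the other adjacent livers at a mean r of 0.966, where the other 3 adjacent livers had means of 0.979 to 0.981 and the tumors 0.975 to 0.979. Results below that turn on M48 are given with and without it.

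**Figure D1:**
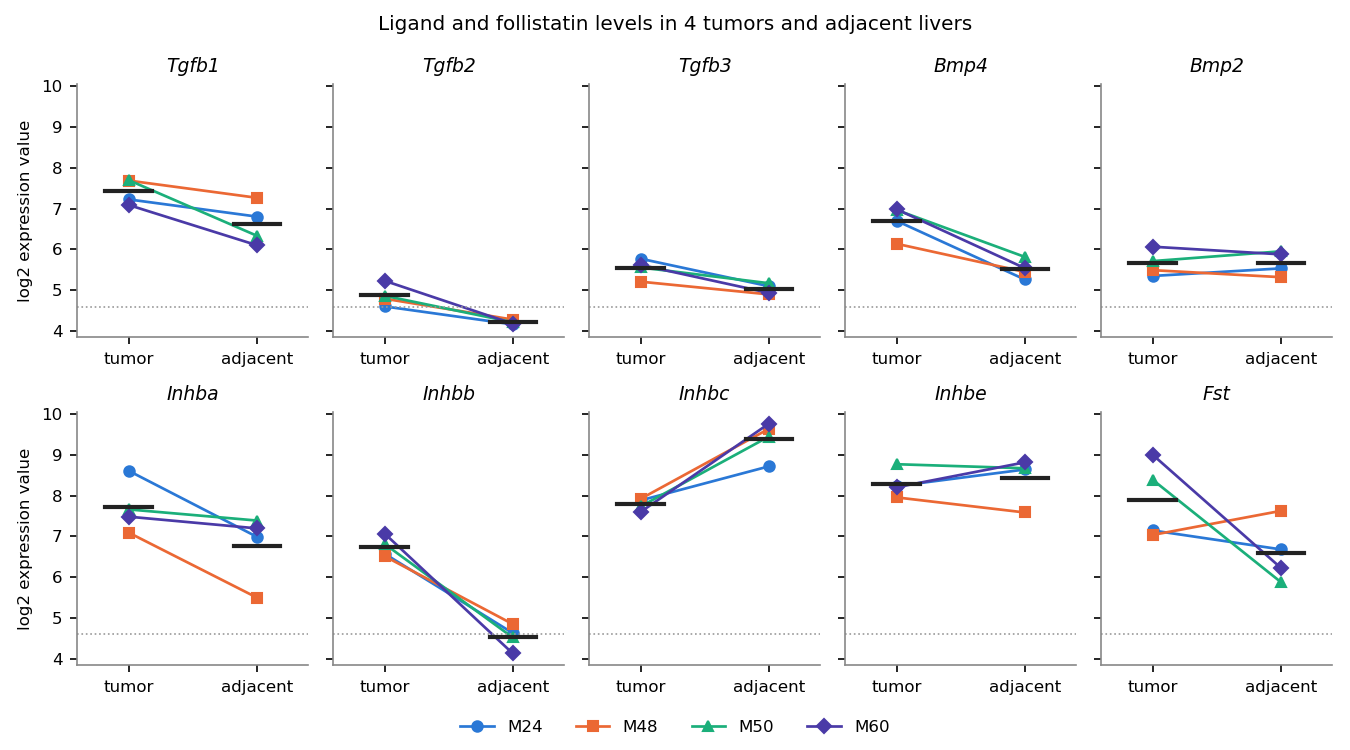
Levels of the 10 genes by sample. The vertical axis is the deposited log2 expression value. Each coloured line joins the tumor (left) and adjacent liver (right) of 1 mouse, black bars are means of 4, and the dotted line marks the filter value of 4.60; Inhbb and Bmp4 were higher in all 4 tumors than in any adjacent liver, and Inhbc lower.

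The activin beta subunits gave both the largest rise and the only fall. Inhbb encodes the subunit whose dimer is activin B. Its level was 6.58, 6.52, 6.82 and 7.07 in the tumors of M24, M48, M50 and M60, against 4.63, 4.85, 4.52 and 4.13 in their adjacent livers. The lowest tumor stood 1.67 log2 units above the highest adjacent liver, so the groups were far from overlapping. The difference of 2.21 (95% interval 1.73 to 2.70, adjusted p = 0.000808) was the 111th largest rise of the 11963 tested genes. It ran from 1.67 in M48 to 2.94 in M60 and was higher in 4 of 4 mice. The adjacent livers of M50 and M60, and the adjacent mean of 4.53, lay below the filter value. Inhbb was therefore tested only because of its tumor values. Signal this low may lie close to background, so the size of the rise is uncertain and may be larger.

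Inhba encodes the subunit of activin A, the best-studied activin in liver growth control. It stood at 8.61, 7.10, 7.66 and 7.49 in the tumors of M24, M48, M50 and M60, against 6.99, 5.50, 7.39 and 7.20 in adjacent liver. The groups overlapped, because the tumor of M48 was lower than the adjacent livers of M50 and M60. The adjacent liver of M48 was far below the other adjacent livers. Within mice the tumor was always higher, by 1.62 in M24 and 1.59 in M48 but by only 0.27 in M50 and 0.29 in M60. The mean difference was 0.94 (95% interval 0.30 to 1.59, adjusted p = 0.0376). Inhba no longer passed with M24 left out (0.72, adjusted p = 0.134), with M48 left out (0.73, adjusted p = 0.104) or with no replicate block, that is with the pairing by mouse ignored (adjusted p = 0.145).

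Inhbc and Inhbe encode the beta C and beta E subunits. In the mouse genome they are neighbours on chromosome 10, with 0 other annotated genes between them. Inhbc stood at 7.88, 7.92, 7.74 and 7.60 in the tumors of M24, M48, M50 and M60, against 8.72, 9.64, 9.45 and 9.77 in adjacent liver. All 4 tumors lay below all 4 adjacent livers, and the tumor values were close together (SD 0.147) while the adjacent values were spread more widely (SD 0.468). The fall of 1.61 (95% interval -2.09 to -1.13, adjusted p = 0.00221) was the 134th largest of the tested genes, and it ranged from -0.83 in M24 to -2.16 in M60.

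Inhbe behaved unlike its neighbour. It stood at 8.24, 7.96, 8.77 and 8.21 in the tumors of M24, M48, M50 and M60, against 8.64, 7.59, 8.67 and 8.82 in adjacent liver. The groups overlapped fully, with the tumor higher in 2 mice and lower in 2. The difference was -0.14 with a 95% interval of -0.54 to 0.27 (adjusted p = 0.579), so a fall of the size seen for Inhbc lies outside that interval. Without M48 the Inhbe difference was -0.31 (adjusted p = 0.187). Within mice, the Inhbc difference minus the Inhbe difference was -1.47 ± 0.728 (SD, n = 4 mice), below 0 in each mouse and lowest in M48, at -2.09. The exact two-sided sign-flip test gave p = 0.125 (0.167 after Benjamini-Hochberg over the 4 gene pairs compared), and 0.125 is the smallest value that 4 mice allow. The pairs were chosen after the values were seen.

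The start regions of the 4 subunit genes are shown because these genes parted in the tumors while 2 of them sit side by side. Each is 250 bases before to 50 after the annotated gene start, from RefSeq on build GRCm38.p6, written 5′ to 3′ on the gene's strand. Capitals mark matches, on either strand, to any of 7 motifs. They are TGATGNAA, the core of the composite site of the stress factors ATF4 and C/EBP; TGACGTCA, the cAMP response element; the Smad-binding sequence CAGACA; the E-box, which reads CACGTG; the TATA box, searched as TATAAA; the box known as CCAAT; and the GC box, which reads GGGCGG.
Inhbb: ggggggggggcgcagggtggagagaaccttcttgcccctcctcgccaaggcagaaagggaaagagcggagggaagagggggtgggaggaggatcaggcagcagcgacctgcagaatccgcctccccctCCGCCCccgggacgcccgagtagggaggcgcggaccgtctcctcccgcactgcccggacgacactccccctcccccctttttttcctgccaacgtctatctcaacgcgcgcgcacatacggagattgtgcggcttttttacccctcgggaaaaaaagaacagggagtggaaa
Inhba: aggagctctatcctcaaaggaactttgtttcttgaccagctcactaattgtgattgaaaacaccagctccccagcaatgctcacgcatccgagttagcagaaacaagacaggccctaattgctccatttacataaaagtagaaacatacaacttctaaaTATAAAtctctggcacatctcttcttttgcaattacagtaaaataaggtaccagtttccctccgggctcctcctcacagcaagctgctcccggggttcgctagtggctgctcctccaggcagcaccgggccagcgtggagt
Inhbc: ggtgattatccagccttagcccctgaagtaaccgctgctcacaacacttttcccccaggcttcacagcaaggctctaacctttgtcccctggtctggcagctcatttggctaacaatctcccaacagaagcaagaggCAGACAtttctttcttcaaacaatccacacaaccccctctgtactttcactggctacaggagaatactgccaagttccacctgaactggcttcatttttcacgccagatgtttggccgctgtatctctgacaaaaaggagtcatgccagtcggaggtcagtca
Inhbe: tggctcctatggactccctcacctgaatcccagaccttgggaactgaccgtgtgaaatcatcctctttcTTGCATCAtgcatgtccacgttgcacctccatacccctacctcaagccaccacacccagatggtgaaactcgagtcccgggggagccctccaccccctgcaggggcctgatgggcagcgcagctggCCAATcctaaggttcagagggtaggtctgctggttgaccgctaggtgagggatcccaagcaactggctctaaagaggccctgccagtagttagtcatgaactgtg
These lie at chr1:119422199-119422498 (minus strand) for Inhbb, chr13:16011601-16011900 (plus) for Inhba, chr10:127370499-127370798 (minus) for Inhbc and chr10:127351799-127352098 (minus) for Inhbe.

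The neighbouring Inhbc and Inhbe windows shared none of the searched motifs. Inhbc held CAGACA, which occurs in 21.0% of 32851 mouse start windows of the same length, from position -113 to -108 before the start. Inhbe held the ATF4-type core, here as its reverse complement TTGCATCA, from -181 to -174, and CCAAT from -55 to -51. The core is found in 3.97% and CCAAT in 37.4% of all windows. Inhbb held 1 GC box (35.7% of windows) and Inhba 1 TATA sequence (13.6%), here from -91 to -86. CACGTG (7.15% of windows) and TGACGTCA (1.79%) were in none of these 4 windows. The dinucleotide CG occurred 23 times in the Inhbb window, 7 times in that of Inhba, 4 times in that of Inhbc and 6 times in that of Inhbe, with a median of 7 over all windows. A match is a description of letters and shows no binding.

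**Figure D2:**
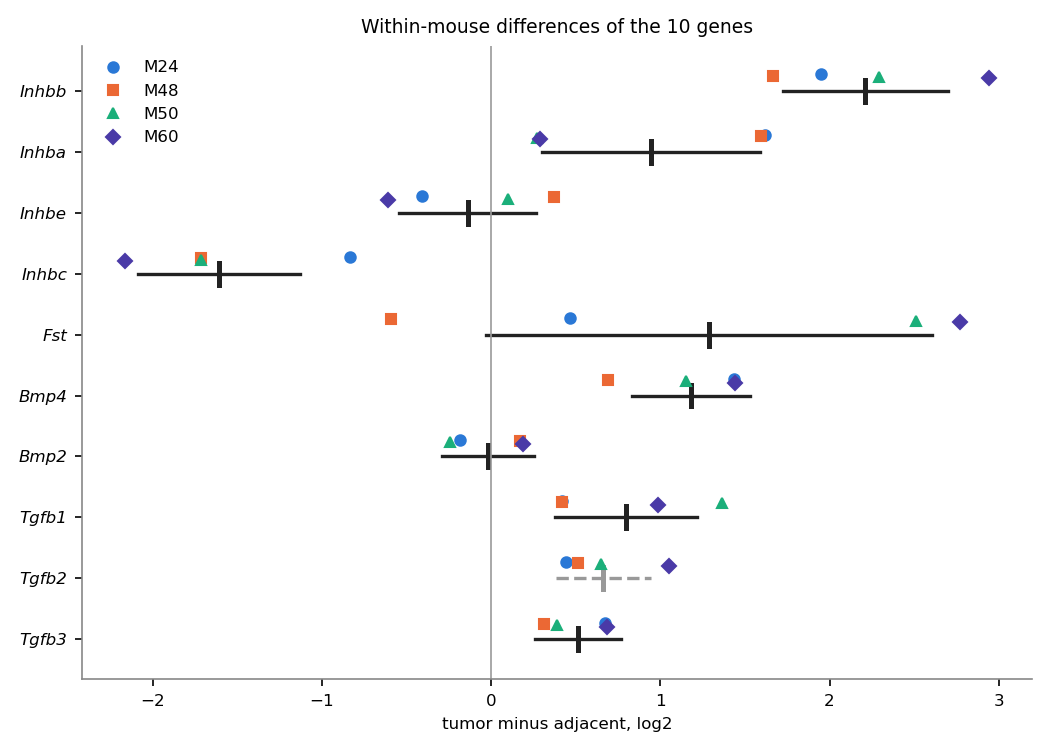
Tumor minus adjacent differences on the log2 scale. Coloured symbols are single mice, ticks and lines are the mean and 95% interval of the limma fit, and the dashed grey line for Tgfb2 is the interval of the fit without the filter; for Inhba the M24 and M48 symbols lie right of the mean, and for Fst they lie left of it.

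Follistatin binds activins and blocks their access to receptors. Fst stood at 7.15, 7.04, 8.39 and 9.01 in the tumors of M24, M48, M50 and M60, against 6.68, 7.63, 5.88 and 6.23 in adjacent liver. The 2 highest values were tumors of M50 and M60, whose adjacent livers were the 2 lowest, and the adjacent liver of M48 lay above its own tumor. The difference was 2.51 in M50 and 2.77 in M60, but 0.46 in M24 and -0.59 in M48. Its mean of 1.29 was therefore poorly determined (95% interval -0.03 to 2.61, adjusted p = 0.124). Without M48 it was 1.92 and passed (adjusted p = 0.0234).

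Inhba and Fst differed between mice in opposite ways. The 2 mice with the larger Inhba differences, M24 and M48, had the smaller Fst differences, and M50 and M60 showed the reverse. With 4 mice no correlation was computed. Inhbb, by contrast, was at least 1.67 higher in the tumor of every mouse. Compared within mice, its difference exceeded that of Inhba by 1.27 ± 1.27 (SD, n = 4 mice, exact two-sided sign-flip p = 0.125, 0.167 adjusted over the 4 pairs), and it exceeded that of Fst by 0.92 ± 1.15 (SD, n = 4 mice, exact p = 0.375, adjusted 0.375). Both comparisons are approximate, because the adjacent Inhbb values of M50 and M60 lay below the filter value. The p of 0.125 is the smallest that 4 mice allow.

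Of the BMP ligands, Bmp4 rose and Bmp2 did not pass. Bmp4, known for its part in forming the embryonic liver bud, stood at 6.70, 6.14, 6.97 and 6.99 in the tumors of M24, M48, M50 and M60, against 5.27, 5.45, 5.82 and 5.54 in adjacent liver. Every tumor lay above every adjacent liver. The difference was 1.18 (SE 0.146, 95% interval 0.83 to 1.53, adjusted p = 0.00211) and was smallest in M48, at 0.69.

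Bmp2, which sinusoidal endothelial cells of the mouse liver secrete to induce hepcidin, stood at 5.35, 5.49, 5.71 and 6.07 in the tumors of M24, M48, M50 and M60, against 5.54, 5.32, 5.95 and 5.88 in adjacent liver. The groups overlapped, with the tumor higher in 2 mice and lower in 2. The difference of -0.02 had a 95% interval of -0.29 to 0.26 (adjusted p = 0.924), which corresponds to 0.818-fold to 1.19-fold. Within mice, Bmp4 exceeded Bmp2 in its difference by 1.20 ± 0.478 (SD, n = 4 mice, exact two-sided sign-flip p = 0.125, 0.167 adjusted over the 4 pairs). That p is the smallest that 4 mice allow, and the pair was chosen after the values were seen.

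The 3 TGF-beta ligands were each higher in the tumor of every mouse, by smaller amounts. Tgfb1, the main isoform in injured liver, stood at 7.23, 7.69, 7.70 and 7.09 in the tumors of M24, M48, M50 and M60, against 6.81, 7.27, 6.34 and 6.11 in adjacent liver. The groups overlapped through M48, whose adjacent liver was above the tumors of M24 and M60. The difference of 0.80 (95% interval 0.38 to 1.22, adjusted p = 0.0150) was 0.42 in M24 and M48, 0.99 in M60 and 1.36 in M50. Without M60 the call was lost (0.74, adjusted p = 0.0608), and without M48 it was 0.92 (adjusted p = 0.0165).

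Tgfb3, an isoform known from palate and lung development, stood at 5.77, 5.21, 5.56 and 5.62 in the tumors of M24, M48, M50 and M60, against 5.10, 4.90, 5.17 and 4.94 in adjacent liver. The groups just failed to touch, by 0.038 log2 units. The difference was 0.51 (95% interval 0.26 to 0.77, adjusted p = 0.0123), and the call was lost without M24 (0.46, adjusted p = 0.0534) or without M60 (0.46, adjusted p = 0.0548).

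Tgfb2 was the one gene of the 10 left out by the filter, with a mean of 4.54 over the 8 arrays. It stood at 4.60, 4.79, 4.87 and 5.23 in the tumors of M24, M48, M50 and M60, against 4.16, 4.28, 4.22 and 4.18 in adjacent liver. All tumors were above all adjacent livers, but every adjacent value was below the filter value, where signal may lie close to background. The difference was 0.66 ± 0.274 (SD, n = 4 pairs). In the fit without the filter, over all 19938 genes, it had an adjusted p = 0.00932.

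The 7 lists of other ligands of the pathway, receptors, Smads, binding proteins, activation and response genes held 81 distinct tested genes, of which 19 rose and 9 fell, or 34.6% called. That share is near the 31.9% of all tested genes, and their median difference was 0.10. Without M60 the rises numbered 12.

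Among other ligands of the family 2 of 8 tested genes rose and 1 fell, beside 16.3% and 15.7% of all tested genes. Bmp8b passed the test as higher at 1.84 (0.30 in M50, up to 2.84 in M48), but did not pass when M24 was left out (adjusted p = 0.0540). Gdf3 passed at 0.37, a call lost without any one of the 4 mice and in 4 other settings. The adjacent means of both, 4.35 for Bmp8b and 4.49 for Gdf3, lay below the filter value, so they were tested only because of their tumor values and the sizes of these differences are uncertain. Gdf10 fell by 0.77, and did not pass once M24 (adjusted p = 0.0722), M48 (0.0923) or M50 (0.114) was left out. The other tested ligands did not pass, among them the hepcidin-inducing Bmp6 at 0.07 (adjusted p = 0.700) and Gdf2, a circulating BMP made in the liver, at -0.79 (adjusted p = 0.0864). The inhibin alpha subunit gene Inha, whose product pairs with beta subunits to form inhibins, was below the filter at a mean of 4.33 in tumors and 4.26 in adjacent liver.

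Of 14 tested receptors and co-receptors 2 rose and 1 fell, beside 16.3% and 15.7% of all tested genes. Tgfbr2, the type II receptor that binds TGF-beta first, stood at 8.50, 8.44, 8.54 and 8.70 in the tumors of M24, M48, M50 and M60, against 7.33, 7.37, 6.94 and 6.63 in adjacent liver. Tumors lay wholly above adjacent livers, and the difference was 1.48 (SE 0.172, adjusted p = 0.00172). Hjv, the BMP co-receptor needed for hepcidin expression, rose by 0.57 (adjusted p = 0.0103). Acvr2a, a type II receptor for activins, fell by 0.54 (adjusted p = 0.00537), with all 4 tumors below all 4 adjacent livers. The activin type I receptor Acvr1b stood at 0.15 (adjusted p = 0.314) and the TGF-beta type I receptor Tgfbr1 at 0.15 (adjusted p = 0.303).

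Of the 8 Smad genes 1 rose and 2 fell, beside 16.3% and 15.7% of all tested genes. Smad9, a BMP-branch Smad that is itself a BMP target, stood at 4.65, 4.51, 4.51 and 4.30 in the tumors of M24, M48, M50 and M60, against 5.44, 6.67, 6.93 and 6.10 in adjacent liver. Its fall was 1.79 (adjusted p = 0.00326). The tumor mean of 4.49 lay below the filter value, so Smad9 was tested only because of its adjacent values and the size is uncertain. Smad2 of the TGF-beta and activin branch rose by 0.48, a call lost without M24 (adjusted p = 0.0523) or M60 (0.0581). The inhibitory Smad7 fell by 0.35, a call lost with no replicate block (adjusted p = 0.238) and without M48 (0.0672), M50 (0.0868) or M60 (0.102).

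Among 11 tested binding proteins and antagonists 2 rose and 0 fell, beside 16.3% and 15.7% of all tested genes. The follistatin-like glycoprotein Fstl1 rose by 1.26 (SE 0.136, adjusted p = 0.00134), by at least 0.99 in each mouse. Fstl3, which like follistatin binds activins, rose by 0.51, a call lost without M48 (adjusted p = 0.0546), M50 (0.108) or M60 (0.102). Of the 14 genes of latency, processing and activation 3 rose and 1 fell, to be set beside the same shares of all tested genes. The integrin subunit Itgav, part of the receptors that release TGF-beta from its latent complex, rose by 0.59, within 0.56 to 0.62 in every mouse (adjusted p = 0.00231). Thbs1, another activator of latent TGF-beta, rose by 1.15 but lost its call without M50 (adjusted p = 0.0769) or M60 (0.110). Ltbp3, which tethers latent TGF-beta to the matrix, rose by 0.47, a call lost without M24, M50 or M60 (adjusted p from 0.104 to 0.146), with no filter and under both other scalings. Pcsk6, a convertase that cuts ligand precursors, fell by 1.07 (adjusted p = 0.00289), whereas the convertase Furin stood at 0.17 (adjusted p = 0.342).

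**Figure D3:**
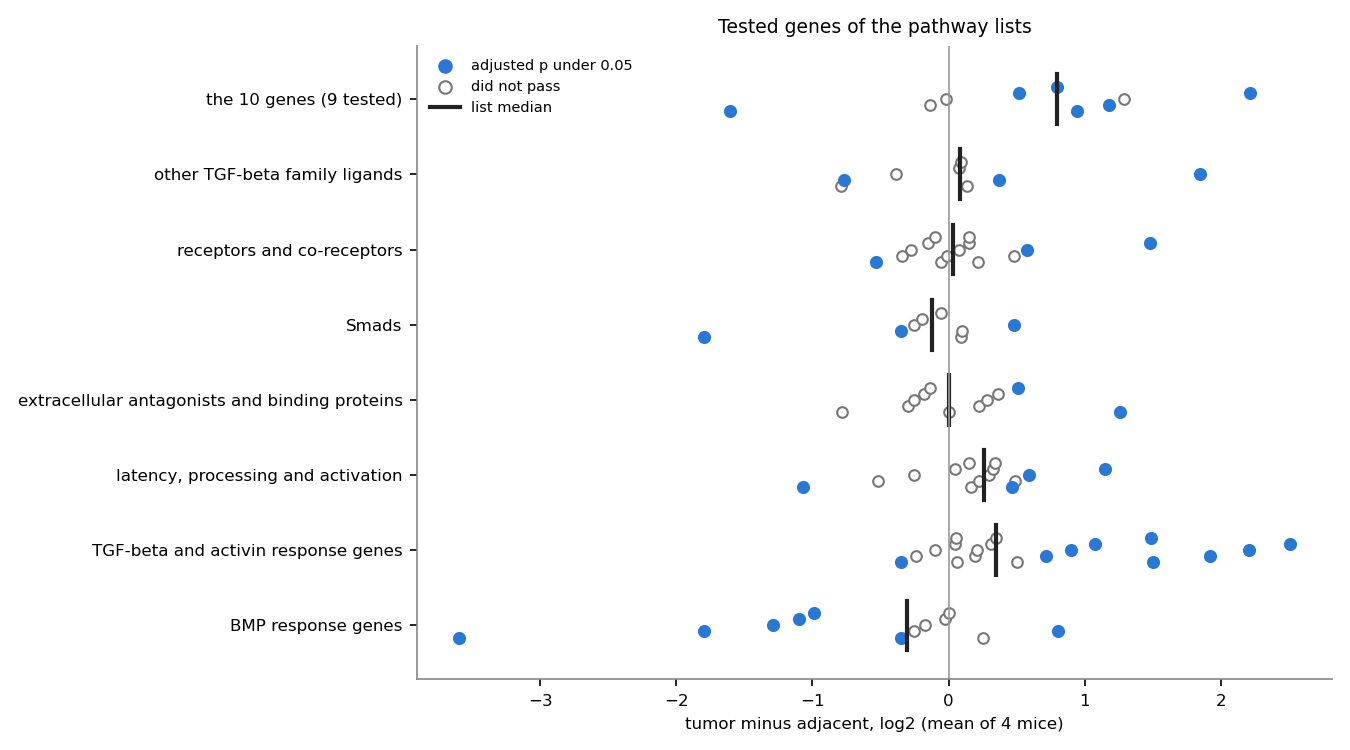
Mean tumor minus adjacent difference (log2, horizontal axis) of each tested gene in the pathway lists. Filled points passed an adjusted p of 0.05, open points did not and black ticks are list medians; response genes of TGF-beta and activin lie mostly to the right, with a median of 0.34, and BMP response genes mostly to the left, with a median of -0.30.

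Of 19 tested response genes of TGF-beta and activin 8 rose and 1 fell, with a median of 0.34, beside 16.3% of all tested genes that rose, 15.7% that fell and a median of 0.00080. Cdkn2b, the cell cycle inhibitor p15 that TGF-beta induces in epithelial cells, stood at 8.03, 7.21, 8.21 and 8.35 in the tumors of M24, M48, M50 and M60, against 5.60, 5.57, 5.29 and 5.30 in adjacent liver. Its difference of 2.51 (SE 0.230, adjusted p = 0.000800) came with no overlap between the groups. The gene that fell was Smad7. The Notch ligand Jag1 rose by 0.71 (adjusted p = 0.00178) and the collagen Col1a1 by 1.92 (adjusted p = 0.00333). Of the 8 that rose 3, Col1a1, Acta2 and Tagln, are also in the myofibroblast marker list. The epithelial-mesenchymal transition factors Snai1, Snai2, Zeb1 and Zeb2 did not pass, with differences from -0.24 to 0.20.

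Of 12 tested BMP response genes 1 rose and 6 fell, with a median of -0.30, to be set beside the same shares of all tested genes. Hepcidin (Hamp), the iron hormone, stood at 5.97, 7.85, 9.54 and 9.51 in the tumors of M24, M48, M50 and M60, against 10.45, 12.43, 12.00 and 12.38 in adjacent liver. It fell by 3.60 (SE 0.373, adjusted p = 0.00118). The iron-regulated factor Atoh8 fell by 1.29 and the inhibitor of differentiation Id3 by 1.10, while its relative Id1 rose by 0.81 (adjusted p = 0.00403). Smad7 and Smad9, which both fell, are in the Smad list too, and Smad9 was tested only because of its adjacent values. Bmp4 and Hjv, and the response gene Id1, were higher in the tumors in which Hamp, Smad9, Atoh8 and Id3 were lower. The other way of counting is that 5 of the 12 response genes did not pass. Whether any ligand takes part in these differences was not tested.

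Some cell type markers also differed between the tissues, and their part in these results was not tested. The counts in all marker lists are to be set beside 16.3% of all tested genes that rose and 15.7% that fell. Of the 6 tested myofibroblast markers 6 rose, with a mean level over the list's 7 measured genes of 6.97 to 8.08 in tumors and 5.59 to 6.26 in adjacent livers, and Lox below the filter. Acta2 was higher by 2.21 and Col3a1 by 1.94. Of 8 tested hepatic stellate cell markers 0 rose and 1 fell, Lhx2 at -0.80. Lrat stood at -0.37 (adjusted p = 0.126), and Gfap was below the filter. The list means were 6.09 to 6.33 in tumors and 6.15 to 6.86 in adjacent livers.

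Endothelial markers were higher in part. Of 8 sinusoidal markers 5 rose, including Lyve1 by 1.49 and Stab1 by 0.60, with list means of 7.79 to 8.22 in tumors and 7.42 to 7.62 in adjacent livers. Of 5 markers of continuous vessels 2 rose, Cd34 by 1.57 and Pecam1 by 1.02. With lists this short and 31.9% of all tested genes called in either direction, such counts are descriptions only. Kupffer cell markers fell in 3 of 5 cases, Marco at -1.29 and Timd4 at -0.94, while 2 of 6 other macrophage markers rose, Ccr2 by 0.99 and Cd68 by 0.98. Of 4 cholangiocyte markers 2 rose, Sox9 by 1.36 and Krt19 by 0.85.

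Hepatocyte markers stayed at the top of the scale in both tissues, with list means of 12.64 to 12.89 in tumors and 12.92 to 13.02 in adjacent livers. Of 6 tested, 1 rose, 3 did not pass and 2 fell, with a list median of -0.12. The falls were Cps1 at -0.84 and Hnf4a at -0.35, named because they had the largest absolute differences. None of the tested lymphocyte (2), platelet (3), neutrophil (2) or erythroid (1) markers passed. The lymphocyte marker Cd8a stood at 0.81 (adjusted p = 0.0907), and Cd3d, at 0.44, was below the filter. The platelet markers Itga2b and Ppbp stood at -0.30 and -0.22, the neutrophil markers S100a8 and S100a9 at -0.39 and -0.076, and the erythroid marker Alas2 at -0.92 (adjusted p = 0.139). Of 3 mesothelial markers 2 fell, Upk3b at -0.54 and Wt1 at -0.47.

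**Figure D4:**
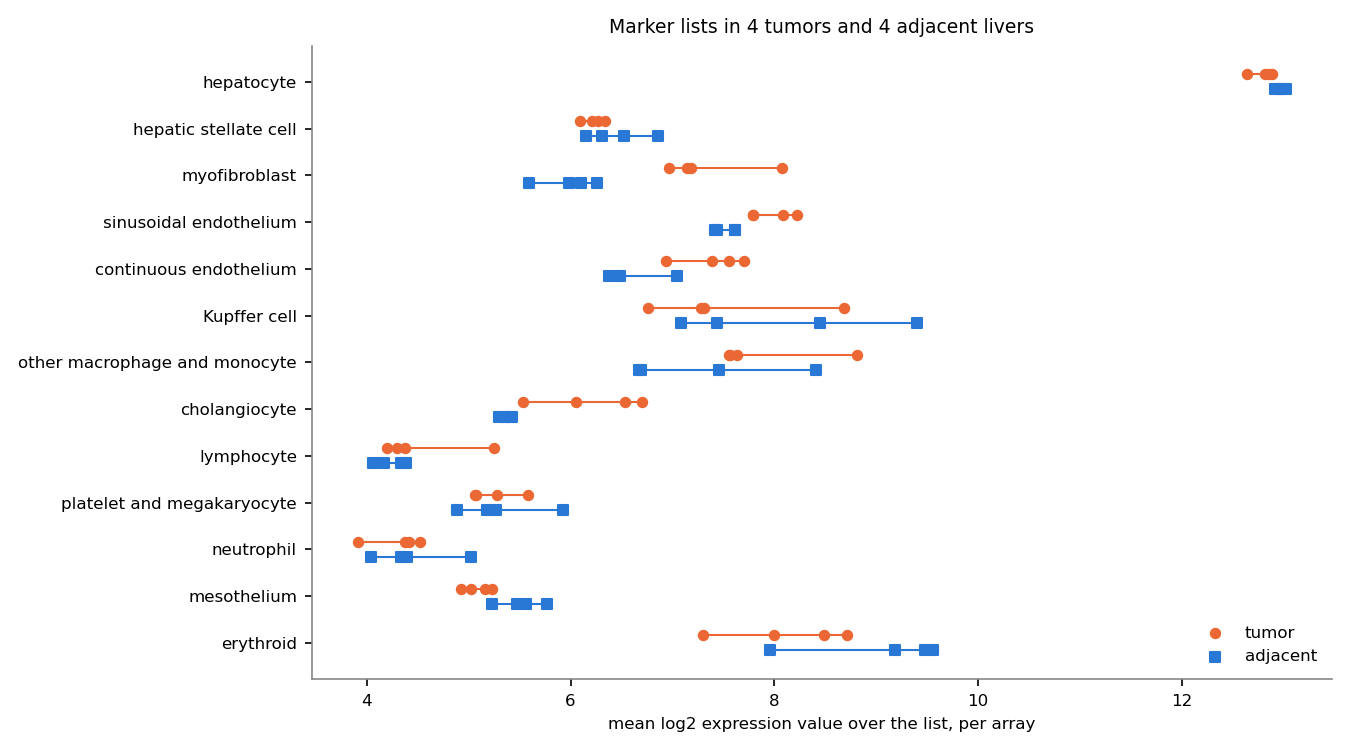
Mean log2 expression value over each marker list (horizontal axis) in the 4 tumors (circles, upper row) and 4 adjacent livers (squares, lower row). Lines span the range of 4 samples; the tumor and adjacent ranges are apart for the myofibroblast, sinusoidal endothelium, cholangiocyte, mesothelium and hepatocyte lists.

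The genes whose 4 within-mouse differences lay closest to those of each called gene were found by root mean square distance over the 4 mice. For Inhbb they were Pold4, a DNA polymerase subunit (distance 0.146), and Fhl3 (0.295). For Inhbc they were the LIM protein gene Csrp2 (0.230) and the carboxylesterase Ces1f (0.235). Bmp4 was nearest to the kinase Tnik (0.131) and the glycerol phosphate acyltransferase Gpam (0.139), and Inhba to the transcription factor Mycn (0.251) and the claudin Cldn1 (0.324). Tgfb1 was nearest to thrombomodulin, Thbd (0.0922), and Nfkb2 (0.0928), and Tgfb3 to Esyt2 (0.0619) and Cars (0.0621). Mycn, like Inhba, had larger differences in M24 (1.33) and M48 (1.29) than in M50 (0.35) and M60 (0.55). It was picked among all tested genes for its closeness to Inhba, so this shared pattern follows from the choice.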

How the data were processed

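Expression was measured on 1 Affymetrix mouse gene array for each of 8 liver samples, from 0.2 ug of total RNA per the labels' protocols. The authors deposited log2 values for 28874 probes, with the log base taken from their range (1.92 to 14.49) and array medians of 4.89 to 5.01. MAS5 is named in the submitters' processing notes with no role or version, and background correction, summarization, normalization, detection calls and scan batches are not stated there, so no batch was tested. The number of arrays limits the precision. Gene names came from the platform annotation, in which 21789 probes had 1 symbol, 1621 had several and 5464 had no entry. Each of 19938 genes was read from its brightest single-symbol probe, and the 40% with the lowest mean (under 4.60) were not tested.

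Tumor and adjacent liver were compared with limma 3.58.1 in R 4.3.3 (lmFit, eBayes with trend, two-sided), with the mouse as a block because both tissues came from the same animals. Deviations from the group means correlated within mice at 0.313 (M24), 0.421 (M48), 0.0986 (M50) and 0.111 (M60). The fit was tested on 10 simulated data sets with normal noise, in which 200 of 11963 genes changed. It recovered 42.0% of 1.5-fold, 75.3% of 2-fold and 95.5% of 4-fold changes, and 4.87% of its calls were false. Far fewer genes changed there than the 3819 called here, so these shares need not hold for the real data. Pairs of genes were compared by an exact sign-flip test. Python 3.11.15 was used for the tables.

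The genes and lists were chosen with earlier results of these data known. The text names the 10 genes, up to 3 rises and 3 falls with the smallest p of each pathway list, the 2 nearest genes of each called gene and up to 2 markers of each list with the largest difference. Other list members were named after their values were seen. Alternatives were no block, no filter, a stricter filter leaving out 60%, quantile normalization, median centring, no trend, the mean of all probes, and leaving out each mouse.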

Additional observations from a re-analysis of the deposited data

Results flagged for a closer look

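The Inhbe level in the adjacent liver of M48 stood apart from the rest of its group. It was 7.59, against 8.64 to 8.82 in the other 3 adjacent livers, so the gap to the nearest was 0.857 of the group's range, above Dixon's critical value for 4 samples. Of 30 sets of 4 values examined (tumor levels, adjacent levels and differences of the 10 genes), 1 passed, and chance flags about 1 set in 20. Without M48 the Inhbe difference was -0.31 (adjusted p = 0.187).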

How the results depend on the processing

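Inhbb, Bmp4 and Inhbc kept their direction and their call in every alternative in which they were tested, and with each mouse left out their differences ranged from 1.97 to 2.39, from 1.09 to 1.34 and from -1.86 to -1.42. Their differences, and so their direction, could change only under quantile normalization, median centring and with a mouse left out. The other alternatives left these differences as they were and could change only the p-values. Leaving out 1 mouse at a time gave ranges of 0.61 to 0.92 for Tgfb1, 0.46 to 0.58 for Tgfb3, 0.72 to 1.17 for Inhba and 0.79 to 1.92 for Fst, with calls lost or gained as given above. Bmp2 ranged from -0.084 to 0.058 (0.040 without M24 and 0.058 without M50) and Inhbe from -0.31 to 0.020 (0.020 without M60), so neither has a settled direction. With no replicate block Inhba kept its difference of 0.94 and lost its call (adjusted p = 0.145), and this changed no other call among the 9 tested genes. The count of the genes that rose was 2 with the stricter filter, which tests fewer of them, and 3 to 5 with a mouse left out (3 without M24 and 3 without M60), against 5; Inhbc was the one gene that fell in each. With a mouse left out, rises among the pathway lists numbered 12 to 22, and over all tested genes 1238 to 1759 rose and 1071 to 1720 fell, the lowest counts being those without M60; without M50, 1170 fell. Fewer mice leave fewer degrees of freedom. Low signal, with means below the filter value and possibly near background, limits Tgfb2, the adjacent levels of Inhbb, Bmp8b and Gdf3, and the tumor level of Smad9.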
